A study of Mus musculus with 12 samples.

Results

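The chemokine system of mouse liver was described here across 4 groups of mice. Its members were the 61 genes, of 55357 in the count table, whose mouse symbol is that of a chemokine ligand (Ccl, Cxcl, Xcl or Cx3cl with a number), a chemokine receptor (Ccr, Cxcr, Xcr or Cx3cr) or an atypical chemokine receptor (Ackr). They comprised 38 ligands, 19 receptors and 4 atypical receptors. A total of 47 members (28 ligands, 15 receptors and 4 atypical receptors) had enough reads to be tested, among 17358 genes tested in all.

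Liver RNA had been sequenced from male C57BL/6J mice that all carried a floxed Ppara allele (PPARa fl/fl). In the hepatocyte-specific PPARα KO mice a Cre transgene driven by the Albumin promoter was present (AlbuminCre Tg/+), so that Ppara was deleted in hepatocytes and left in place in the other cells of the liver, and in the WT mice it was absent (AlbuminCre +/+). Mice were 7 weeks old at the start, were fed for 6 weeks with either chow or CDAHFD, a high-fat diet without choline, with amino acids in place of protein, that is used to induce steatohepatitis, and were 13 weeks old at sacrifice. The libraries numbered 4 for WT chow, 3 for WT CDAHFD, 2 for KO chow and 3 for KO CDAHFD, with 29906785 to 43551003 counted reads each. As values were taken from whole liver, more cells of a type and more RNA per cell cannot be told apart.

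Chemokines are small secreted proteins that guide leukocytes along concentration gradients through G protein-coupled receptors. The CC ligands CCL2 and CCL7 act on CCR2 of monocytes, the CXC ligands CXCL1, CXCL2, CXCL3 and CXCL5 act on CXCR2 of neutrophils, and CXCL9, CXCL10 and CXCL11 act on CXCR3 of activated T and NK cells, whereas CXCL12 is a constitutive ligand made by stromal and endothelial cells. Atypical receptors bind chemokines without G protein signalling and remove or retain them. In the liver, resident Kupffer cells, hepatocytes, endothelial cells and stellate cells all make chemokines, and monocytes recruited through CCR2 contribute to steatohepatitis.

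Transcript levels of Ppara, the deleted gene, were 120.1, 96.2, 238 and 226 CPM in WT chow, 59.5, 75.5 and 73.5 CPM in WT CDAHFD, 14.4 and 38.7 CPM in KO chow and 36.3, 20.7 and 51.9 CPM in KO CDAHFD. All 5 KO libraries were below the 7 WT libraries, and the log2 fold change of KO chow against WT chow was -2.68 ± 0.50 (adjusted p = 0.00111) by edgeR's quasi-likelihood test, which gave every adjusted p below. Levels are in CPM, read counts scaled to a common library size (TMM). In what follows, ± is the SD after a group level and the SE after a log2 fold change. A member was called higher or lower at an adjusted p under 0.05 over all 17358 genes. The WT chow libraries entered all comparisons with that group, which are therefore not independent of each other. A score of circadian clock genes separated the WT chow libraries, with 1.90 and 1.76 in replicates 1 and 2 against -1.82 and -2.11 in replicates 3 and 4, and reached -3.04 in KO CDAHFD replicate 3. With the score as a covariate all 92 calls of members over the 5 comparisons were kept, and in a fit restricted to libraries with a score above 0, which holds 1 KO chow library, 13 were lost. Compositional scaling mattered as well, since scaling by library size alone shifted the median log2 fold change over the genes tested from -0.048 to 0.51 for WT CDAHFD against WT chow, and that of KO chow from 0.0022 to 0.40, and the changes below are relative to the former medians.

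In WT CDAHFD, 26 of the 47 tested members were higher than in WT chow (55.3%, where 26.1% of all tested genes were called higher) and 5 were lower (10.6%, against 25% of all tested genes). KO chow, on the same chow diet as its control, again had 26 members higher (55.3%, background 22%) and 3 lower (6.38%, background 17%). The median log2 fold change of the tested members was 1.64 in WT CDAHFD and 1.48 in KO chow. It was 1.19 and 1.30 with Ccl20 and Cxcl3, which had no read in WT chow, set at the lower bounds of their change. Both entered the test through their reads in the other groups, so a lower call was not possible for them. They count among the 26 higher members of each comparison. Ackr4, Ccl25, Ccl27a, Cxcl12 and Cxcl13 were lower in WT CDAHFD, and Ackr4, Cxcl12 and Cxcl13 in KO chow. Ackr3, Ccr3 and Cxcr3 were called higher in WT CDAHFD but not in KO chow, Ccl11, Cxcl9 and Xcr1 in KO chow but not in WT CDAHFD, and no member had opposite calls. Scaling by library size alone gave 33 higher and 3 lower members in WT CDAHFD (backgrounds 52.4% and 6.74%) and 31 and 1 in KO chow (40.5% and 6.62%).

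**Figure D1:**
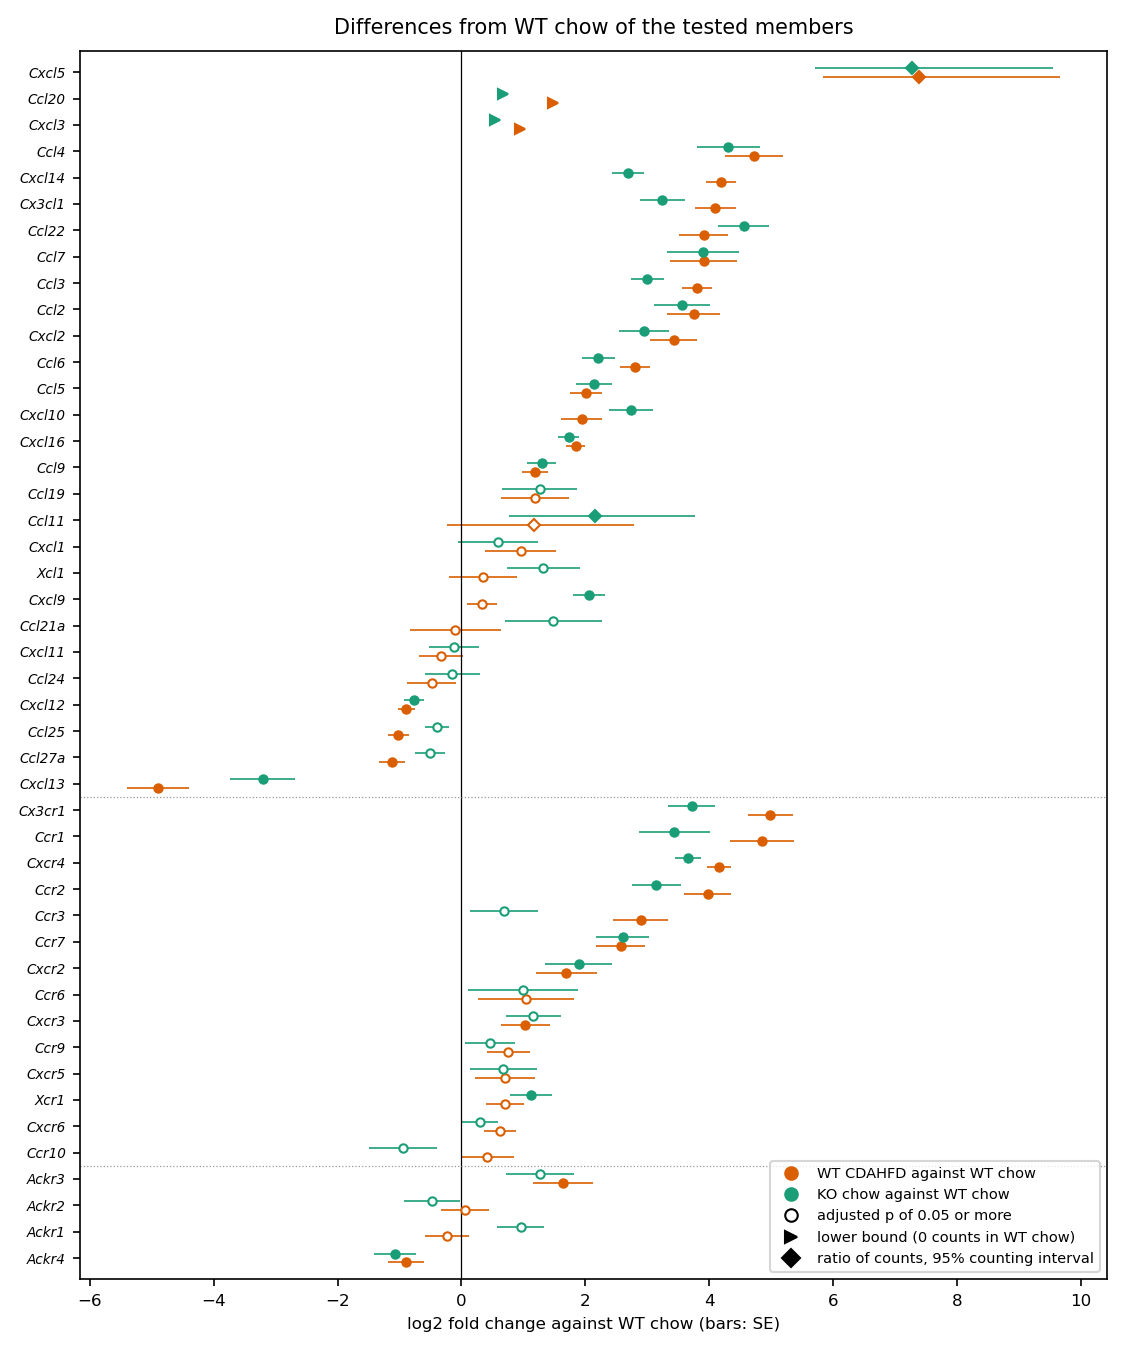
Log2 fold change against WT chow of tested members, ligands at the top, receptors in the middle and atypical receptors at the bottom, for WT CDAHFD (orange) and KO chow (green). Circles with bars are fitted values with their SE, filled where the adjusted p was under 0.05, triangles are lower bounds for Ccl20 and Cxcl3, and diamonds are ratios of counts with 95% counting intervals for Cxcl5 and Ccl11, which had few reads in WT chow; most ligands and receptors lie to the right of 0 in both comparisons, and Cxcl13 lies farthest to the left.

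The ligands of CCR2 and of the monocyte-attracting CC family rose in both groups. Ccl2, the main ligand of CCR2, was at 2.41, 0.661, 0.767 and 0.275 CPM in WT chow, 13.7, 14.8 and 13 CPM in WT CDAHFD, 13.8 and 10.5 CPM in KO chow and 12.9, 12.3 and 8.66 CPM in KO CDAHFD. Its lowest level outside WT chow was above its highest WT chow level, and the log2 fold change was 3.75 ± 0.43 (adjusted p = 1.25e-05) in WT CDAHFD and 3.55 ± 0.45 (adjusted p = 5.50e-05) in KO chow. Ccl7, a further CCR2 ligand, was at 0.66, 0.126, 0.10 and 0.0459 CPM in WT chow, 3.38, 3.59 and 3.54 CPM in WT CDAHFD, 4.57 and 2.43 CPM in KO chow and 2.52, 4.44 and 2.07 CPM in KO CDAHFD. Replicate 1 stood above the other WT chow libraries, yet no library of the other groups overlapped with it, with log2 fold changes of 3.91 ± 0.54 (adjusted p = 6.72e-05) with CDAHFD and 3.90 ± 0.58 (adjusted p = 0.000186) with the KO. Ccl2 and Ccl7 lie with Ccl11, Ccl12, Ccl8 and Ccl1 on chromosome 11, 82035571 to 82305690 (GRCm38). Of these, Ccl12 and Ccl8, which also bind CCR2, were too low for the test. Ccl12 was 0.0309 ± 0.0379 CPM in WT chow and 0.0806 ± 0.0525 CPM in WT CDAHFD (SD, n = 4 and n = 3). It was 0.255 ± 0.293 CPM in KO chow and 0.0665 ± 0.0374 CPM in KO CDAHFD (SD, n = 2 and n = 3). In KO chow it had 17 reads in replicate 1 and 2 in replicate 2. Ccl8 had at most 5 reads in a library.

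The inflammatory CC ligands Ccl3, Ccl4, Ccl5, Ccl6 and Ccl9 are encoded by a second group of genes on chromosome 11, 83525778 to 83664683, and all 5 of them rose in both comparisons. Ccl3 and Ccl4 (macrophage inflammatory proteins) were close to undetected in WT chow, with 0.194, 0.22, 0.267 and 0.229 CPM in WT chow, 3.48, 3.53 and 2.62 CPM in WT CDAHFD, 1.58 and 2.11 CPM in KO chow and 2.98, 3.1 and 2.43 CPM in KO CDAHFD for Ccl3. The log2 fold changes of Ccl3 were 3.80 ± 0.25 (adjusted p = 1.24e-07) in WT CDAHFD and 2.997 ± 0.27 (adjusted p = 3.57e-06) in KO chow. Ccl4 was at 0.272, 0.0944, 0.0333 and 0 CPM in WT chow, 2.79, 2.93 and 2.47 CPM in WT CDAHFD, 2.39 and 1.72 CPM in KO chow and 2.59, 2.19 and 2.31 CPM in KO CDAHFD, with log2 fold changes of 4.72 ± 0.47 (adjusted p = 3.93e-06) with CDAHFD and 4.31 ± 0.50 (adjusted p = 2.83e-05) with the KO. For neither gene did a WT chow library reach the level of any other group.

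Ccl5 (RANTES), a ligand of CCR1 and CCR3, was at 0.738, 1.39, 1.73 and 0.963 CPM in WT chow, 5.72, 4.64 and 4.41 CPM in WT CDAHFD, 6.25 and 4.51 CPM in KO chow and 4.8, 4.04 and 5.9 CPM in KO CDAHFD. Each library outside WT chow was at least at 4 CPM, above all WT chow libraries, and the log2 fold changes were 2.01 ± 0.26 (adjusted p = 3.94e-05) with CDAHFD and 2.14 ± 0.28 (adjusted p = 8.00e-05) with the KO. Ccl6 and Ccl9, 2 rodent CC chemokines that act on CCR1, were more abundant per length, as given with the ligand pool. Ccl6 was at 13.8, 6.11, 10.5 and 7.06 CPM in WT chow, 79.1, 63.5 and 52.8 CPM in WT CDAHFD, 37.3 and 49.2 CPM in KO chow and 56.1, 49 and 43.2 CPM in KO CDAHFD, so that KO chow lay between WT chow and WT CDAHFD without overlap, and its log2 fold changes were 2.80 ± 0.25 (adjusted p = 1.42e-06) with CDAHFD and 2.21 ± 0.26 (adjusted p = 3.37e-05) with the KO. Ccl9, the highest CC ligand of WT chow per length, was at 61.8, 74, 40.6 and 47.7 CPM in WT chow, 144, 127 and 114 CPM in WT CDAHFD, 165 and 110.3 CPM in KO chow and 114, 146 and 94.6 CPM in KO CDAHFD. Its change was the smallest of the 5 genes at 1.19 ± 0.21 (adjusted p = 0.000491) with CDAHFD and 1.30 ± 0.23 (adjusted p = 0.000819) with the KO, again with no overlap between WT chow and the other groups.

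The CXCR2 ligands, which attract neutrophils, lie together on chromosome 5, 90759360 to 90905938, and 3 of the 4 tested rose in both comparisons. Cxcl5 had 3 reads in WT chow replicate 1 and none in the other WT chow libraries, and was at 0.116, 0, 0 and 0 CPM in WT chow, 4.71, 4.7 and 4.3 CPM in WT CDAHFD, 6.55 and 2.16 CPM in KO chow and 5.41, 4.6 and 5.26 CPM in KO CDAHFD. The ratio of its reads to WT chow, with the 95% exact counting interval, was 167 (56.9 to 811) for WT CDAHFD and 154 (52.3 to 751) for KO chow, at adjusted p = 1.28e-06 and 4.39e-06. These intervals cover counting error only. Cxcl2 was at 0.776, 0.346, 0.267 and 0.183 CPM in WT chow, 4.79, 4.23 and 3.76 CPM in WT CDAHFD, 3.45 and 2.67 CPM in KO chow and 4.1, 3.58 and 1.95 CPM in KO CDAHFD, with no WT chow library near those of the other groups and log2 fold changes of 3.42 ± 0.38 (adjusted p = 9.75e-06) with CDAHFD and 2.95 ± 0.41 (adjusted p = 0.000111) with the KO.

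Cxcl3 had no read in WT chow and was at 0, 0, 0 and 0 CPM in WT chow, 0.266, 0.0777 and 0.306 CPM in WT CDAHFD, 0.109 and 0.218 CPM in KO chow and 0.242, 0.267 and 0.167 CPM in KO CDAHFD. A floor of 3 reads in each WT chow library corresponds to 0.112 CPM. Against it Cxcl3 was at least 1.93-fold higher in WT CDAHFD and at least 1.46-fold higher in KO chow (adjusted p = 0.00198 and 0.00738). With no read in WT chow, a lower call was not possible. Cxcl1, among the highest ligands of WT chow per length, did not pass the test in either comparison. Its levels were 34.9, 14.2, 3.77 and 3.94 CPM in WT chow, 26.7, 33.9 and 22 CPM in WT CDAHFD, 25.2 and 17.5 CPM in KO chow and 23.9, 32.8 and 22.3 CPM in KO CDAHFD. The WT chow libraries spread over a range that took in all other groups, with the 2 libraries of positive clock score above the 2 of negative score, and the log2 fold changes were 0.95 ± 0.58 (adjusted p = 0.187) with CDAHFD and 0.59 ± 0.65 (adjusted p = 0.508) with the KO. Cxcl15, at the same locus, had no read in any library.

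The upstream sequences of Cxcl1, Cxcl2 and Cxcl3 are shown because these neighbouring genes share a motif, while Cxcl2 and Cxcl3 were called in both comparisons and Cxcl1 in neither. Whether their changes differed from each other was not tested. They run from 150 to 31 bases before the start site (RefSeq, GRCm38.p6), and capitals mark a match to the NF-kappa B consensus on the printed strand together with an overlapping match on the other strand.
Cxcl1, chr5:90891095-90891214, plus strand: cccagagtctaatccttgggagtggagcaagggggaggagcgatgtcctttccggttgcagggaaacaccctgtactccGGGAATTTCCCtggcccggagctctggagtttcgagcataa
Cxcl2, chr5:90903749-90903868, plus strand: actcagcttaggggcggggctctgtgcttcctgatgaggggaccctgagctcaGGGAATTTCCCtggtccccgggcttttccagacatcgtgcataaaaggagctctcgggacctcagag
Cxcl3, chr5:90785951-90786070, plus strand: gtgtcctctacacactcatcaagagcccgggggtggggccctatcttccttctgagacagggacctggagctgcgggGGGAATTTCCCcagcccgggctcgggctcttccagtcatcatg
The capitals spell the same letters in all 3 genes, 71, 97 and 73 bases before the start site at their first base. Among the 34 tested members with an entry in the promoter table (46 of the 61 members matched by symbol), 10 held the consensus within 250 bases before the start on either strand (29.4%, against 8.23% of 27025 genes with an entry), namely Ackr2, Ccl20, Ccl9, Ccr1, Ccr3, Ccr6, Cxcl1, Cxcl10, Cxcl2 and Cxcl3. Ackr2, Ccr6 and Cxcl1 hold the motif and passed the test in neither comparison. The interferon-stimulated response element core GAAANNGAAA was in 3 of the 34 (8.82%, against 3.46% of all) and the AP-1 motif TGANTCA in 4 (11.8%, against 7.82%). A match is a description of the letters and was not tested for binding.

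**Figure D2:**
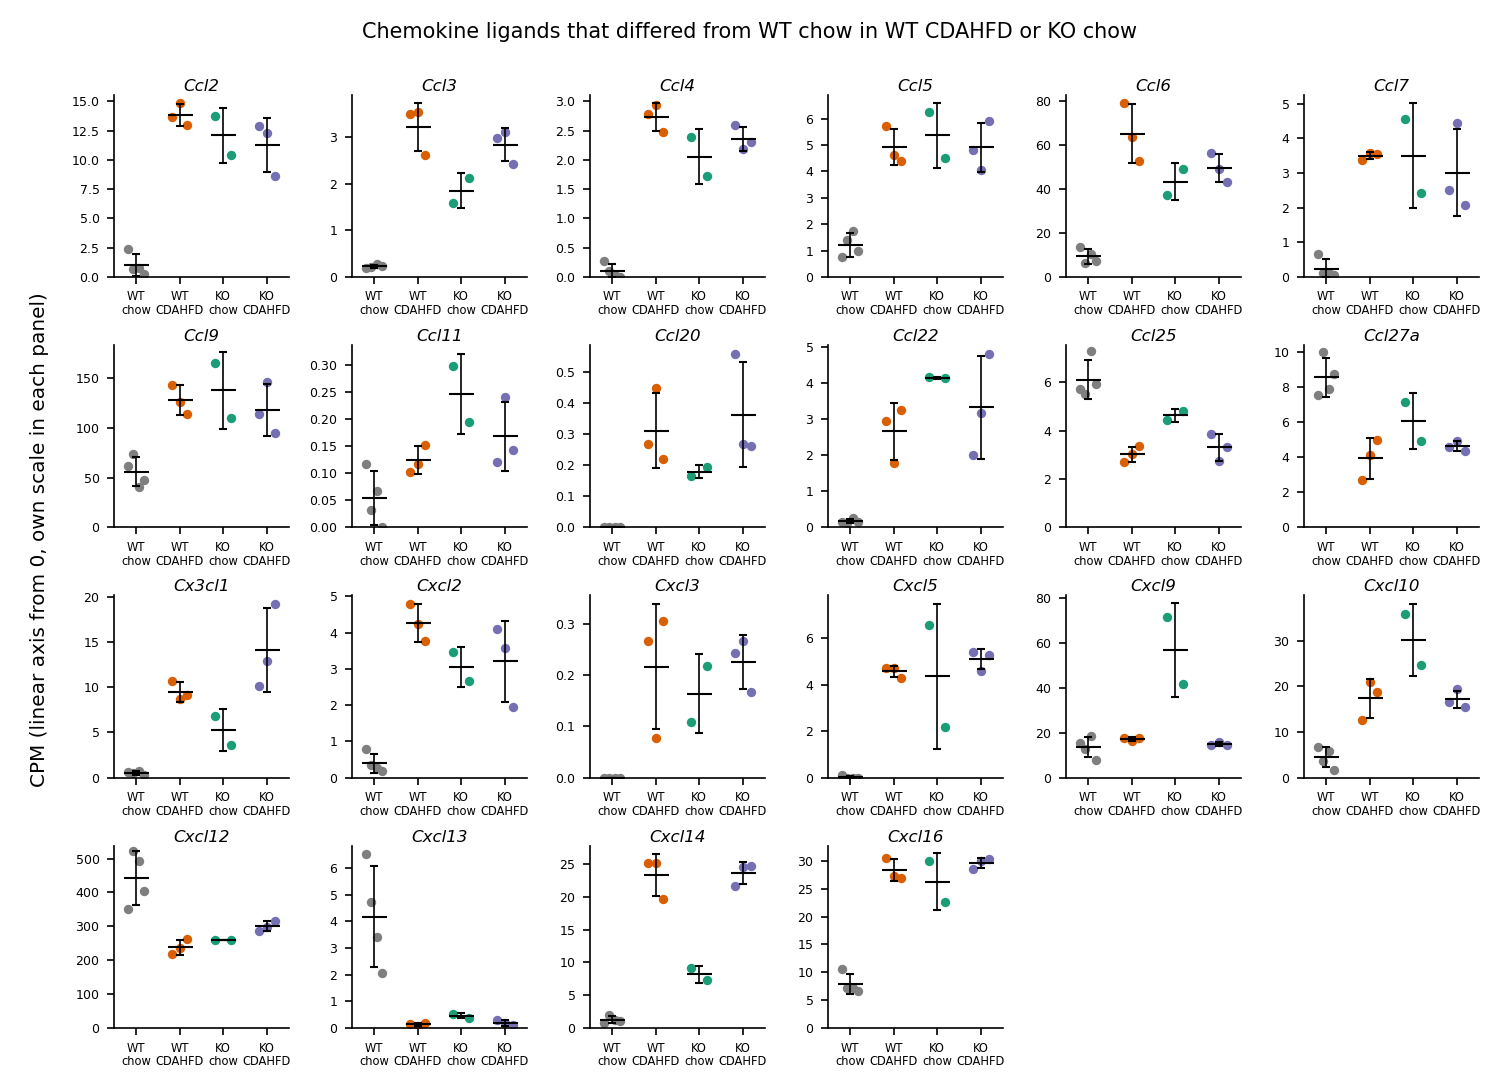
Levels in CPM of the 22 ligands that differed from WT chow in WT CDAHFD or KO chow, one panel per gene, with one point per library, the group mean as a line and the SD as a bar that stops at 0. WT chow is the lowest group for 18 of the ligands and the highest for Ccl25, Ccl27a, Cxcl12 and Cxcl13, whereas Cxcl9 is high in KO chow and not in the other groups.

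Of the CXCR3 ligands, Cxcl9 was called in KO chow alone and Cxcl10 in both comparisons. Cxcl9, an interferon gamma target, was at 15.3, 12.7, 18.6 and 7.75 CPM in WT chow, 17.8, 16.1 and 17.5 CPM in WT CDAHFD, 71.4 and 41.8 CPM in KO chow and 14.3, 15.9 and 14.3 CPM in KO CDAHFD. Both KO chow libraries exceeded all other libraries, whereas WT CDAHFD and KO CDAHFD overlapped with WT chow. The log2 fold change was 2.05 ± 0.26 (adjusted p = 5.22e-05) in KO chow and 0.33 ± 0.24 (adjusted p = 0.271) in WT CDAHFD, and that of KO CDAHFD against KO chow was -1.93 ± 0.28 (adjusted p = 0.00275). Cxcl10, at the same locus (chromosome 5, 92321347 to 92365485), was at 6.76, 3.62, 5.9 and 1.74 CPM in WT chow, 12.7, 20.9 and 18.7 CPM in WT CDAHFD, 35.8 and 24.6 CPM in KO chow and 16.6, 19.3 and 15.6 CPM in KO CDAHFD and rose in both, by 1.94 ± 0.33 (adjusted p = 0.00034) in WT CDAHFD and 2.74 ± 0.36 (adjusted p = 6.84e-05) in KO chow. Cxcl11 did not pass the test, at 2.63 ± 1.05 CPM in WT chow, 2.11 ± 0.93 CPM in WT CDAHFD, 2.44 ± 0.198 CPM in KO chow and 3.07 ± 0.394 CPM in KO CDAHFD (SD, n = 4, 3, 2 and 3). The annotation used gives Cxcl11 as a polymorphic pseudogene.

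Cxcl10 is printed because its upstream stretch, from 250 to 31 bases before the start on the minus strand, held NF-kappa B and interferon motifs. Capitals mark the interferon-stimulated response element core first and then 2 NF-kappa B stretches, the second made of overlapping matches.
Cxcl10, chr5:92348920-92349139, minus strand: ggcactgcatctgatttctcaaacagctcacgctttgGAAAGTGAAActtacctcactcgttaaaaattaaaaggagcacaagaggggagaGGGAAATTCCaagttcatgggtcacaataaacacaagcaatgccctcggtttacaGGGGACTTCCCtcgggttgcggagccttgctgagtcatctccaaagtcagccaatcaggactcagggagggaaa
An AP-1 match of Cxcl10 within this stretch was left in lower case.

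Among the ligands of the other CC receptors, Ccl22, a dendritic cell and macrophage product that acts on CCR4, was at 0.155, 0.126, 0.267 and 0.138 CPM in WT chow, 2.93, 1.77 and 3.26 CPM in WT CDAHFD, 4.16 and 4.12 CPM in KO chow and 1.99, 3.15 and 4.8 CPM in KO CDAHFD. WT chow did not overlap with any other group, and the log2 fold changes were 3.91 ± 0.39 (adjusted p = 4.42e-06) with CDAHFD and 4.55 ± 0.41 (adjusted p = 3.77e-06) with the KO. Ccl17, its partner CCR4 ligand at the same locus, was too low for the test, and Ccr4 was below 10 counts everywhere. Ccl20, the CCR6 ligand (chromosome 1, 83116766 to 83119167), had no read in WT chow and was at 0, 0, 0 and 0 CPM in WT chow, 0.266, 0.447 and 0.219 CPM in WT CDAHFD, 0.163 and 0.194 CPM in KO chow and 0.558, 0.267 and 0.262 CPM in KO CDAHFD. It was thus at least 2.77-fold higher in WT CDAHFD and at least 1.59-fold higher in KO chow against the same floor (adjusted p = 0.00044 and 0.00366). As with Cxcl3, a lower call was not possible. For the eosinophil attractants that act on CCR3, Ccl11 had 6 reads over the WT chow libraries and was 0.0537 ± 0.04995 CPM in WT chow, 0.124 ± 0.0261 CPM in WT CDAHFD, 0.247 ± 0.0743 CPM in KO chow and 0.168 ± 0.0636 CPM in KO CDAHFD, and Ccl24 was 2.03 ± 0.602 CPM in WT chow, 1.46 ± 0.319 CPM in WT CDAHFD, 1.84 ± 0.214 CPM in KO chow and 1.77 ± 1.0 CPM in KO CDAHFD. Ccl11 was called in KO chow only, where the ratio of reads was 4.44 (95% counting interval 1.704 to 13.6, adjusted p = 0.025). The ratio in WT CDAHFD was 2.25 (0.854 to 6.91, adjusted p = 0.171). The KO chow call of Ccl11 was lost without the filter for low genes (adjusted p = 0.0619) and with the replicate number as a block (adjusted p = 0.0925). Of 12 fits that each left out 1 library, Ccl11 passed the filter in 6. Among these the call was lost without KO chow replicate 1 (log2 fold change 1.78).

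Ccl25 and Ccl27a, ligands of CCR9 and CCR10 that are best known from gut and skin, were lower in WT CDAHFD. Ccl25 was at 5.71, 5.51, 7.3 and 5.92 CPM in WT chow, 2.7, 3.01 and 3.34 CPM in WT CDAHFD, 4.43 and 4.83 CPM in KO chow and 3.85, 2.75 and 3.31 CPM in KO CDAHFD, and Ccl27a was at 7.57, 10.04, 7.9 and 8.76 CPM in WT chow, 2.7, 4.12 and 5.004 CPM in WT CDAHFD, 7.18 and 4.92 CPM in KO chow and 4.58, 4.95 and 4.35 CPM in KO CDAHFD. The WT CDAHFD libraries were all below WT chow for both genes, with log2 fold changes of -1.02 ± 0.17 (adjusted p = 0.000313) for Ccl25 and -1.12 ± 0.21 (adjusted p = 0.000795) for Ccl27a. In KO chow the values were -0.40 ± 0.19 (adjusted p = 0.118) and -0.50 ± 0.24 (adjusted p = 0.115), which did not pass the test. Exons of Ccl25 overlap with Elavl1 over 204 bases and those of Ccl27a with Il11ra1 over 8 bases on other strands, and in libraries without strand reads from such stretches cannot be told apart. Reads of Elavl1 amounted to 1016% of those of Ccl25, and reads of Il11ra1 to 689% of those of Ccl27a.

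Of the lymphoid ligands tested, Cxcl13, Ccl19 and Ccl21a, Cxcl13 was called, and it was lower. Cxcl13, the B cell attractant that acts on CXCR5 (chromosome 5, 95956951 to 95961068), fell the most of all tested members. It was at 6.52, 4.72, 3.43 and 2.06 CPM in WT chow, 0.164, 0.0777 and 0.175 CPM in WT CDAHFD, 0.517 and 0.388 CPM in KO chow and 0.315, 0.187 and 0.0951 CPM in KO CDAHFD, so that each library of the other groups was below all WT chow libraries, and the log2 fold changes were -4.90 ± 0.50 (adjusted p = 4.91e-06) in WT CDAHFD and -3.21 ± 0.52 (adjusted p = 0.000376) in KO chow. Ccl19 and Ccl21a, the CCR7 ligands of lymphoid stroma, were 0.343 ± 0.205 CPM in WT chow, 0.777 ± 0.289 CPM in WT CDAHFD, 0.826 ± 0.448 CPM in KO chow and 0.496 ± 0.239 CPM in KO CDAHFD for Ccl19 and 1.71 ± 2.15 CPM in WT chow, 1.59 ± 1.02 CPM in WT CDAHFD, 4.76 ± 1.69 CPM in KO chow and 1.69 ± 0.844 CPM in KO CDAHFD for Ccl21a, and neither passed the test. Ccl21a has near-identical copies, which the counting could have split. 

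Cxcl12, the CXCR4 ligand (chromosome 6, 117168535 to 117181367), had the highest ligand level per length in WT chow and fell in both groups. It was at 352, 522, 493 and 403 CPM in WT chow, 218, 236 and 261 CPM in WT CDAHFD, 259 and 260.5 CPM in KO chow and 286, 298 and 316 CPM in KO CDAHFD. No library of the other groups reached the lowest WT chow level, and the log2 fold changes were -0.89 ± 0.14 (adjusted p = 0.00015) with CDAHFD and -0.77 ± 0.16 (adjusted p = 0.002001) with the KO, of which neither passed the test under scaling by library size alone (-0.33, adjusted p = 0.0526, and -0.36, adjusted p = 0.0743). Cxcl14, a CXC ligand of epithelia and stroma (chromosome 13, 56288643 to 56296551), was at 0.699, 1.98, 1.27 and 1.05 CPM in WT chow, 25.1, 25.2 and 19.6 CPM in WT CDAHFD, 9.14 and 7.3 CPM in KO chow and 21.7, 24.5 and 24.7 CPM in KO CDAHFD. WT chow, KO chow and the CDAHFD groups occupied separate ranges, and the log2 fold changes were 4.19 ± 0.25 (adjusted p = 5.64e-08) in WT CDAHFD and 2.69 ± 0.26 (adjusted p = 6.19e-06) in KO chow.

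The membrane-anchored ligands Cxcl16 and Cx3cl1 rose in both groups. Cxcl16, which acts on CXCR6 of T and NKT cells, was at 10.6, 7.11, 7.24 and 6.65 CPM in WT chow, 30.5, 27.3 and 27 CPM in WT CDAHFD, 29.9 and 22.6 CPM in KO chow and 28.6, 29.97 and 30.3 CPM in KO CDAHFD, with log2 fold changes of 1.84 ± 0.16 (adjusted p = 9.59e-07) with CDAHFD and 1.73 ± 0.17 (adjusted p = 6.64e-06) with the KO and a WT chow range well below the others. Exons of Cxcl16 share 552 bases with Zmynd15 on the other strand, whose reads amounted to 36.2% of those of Cxcl16. Cx3cl1 (fractalkine), the ligand of CX3CR1, was at 0.66, 0.504, 0.767 and 0.229 CPM in WT chow, 10.7, 8.68 and 9.11 CPM in WT CDAHFD, 6.88 and 3.64 CPM in KO chow and 10.2, 12.9 and 19.2 CPM in KO CDAHFD, and its log2 fold changes were 4.10 ± 0.34 (adjusted p = 7.85e-07) with CDAHFD and 3.24 ± 0.36 (adjusted p = 1.99e-05) with the KO. The lowest library outside WT chow was KO chow replicate 2, still above all WT chow libraries. Xcl1, the XCR1 ligand, was 0.205 ± 0.118 CPM in WT chow, 0.258 ± 0.0799 CPM in WT CDAHFD, 0.517 ± 0.423 CPM in KO chow and 0.44 ± 0.0772 CPM in KO CDAHFD and did not pass the test in either comparison.

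Compared per length (CPM divided by the kilobases of exon), the ligand pool rose and changed in make-up. The summed ligand level was 112 ± 17.9 CPM per kb (SD, n = 4) in WT chow, with 204 ± 14.5 for the 3 WT CDAHFD libraries, 206 ± 36.2 for the 2 of KO chow and 197 ± 13.99 for the 3 of KO CDAHFD, and each library outside WT chow was above the highest WT chow sum of 126. In WT chow the 5 highest ligands were Cxcl12 (54.1 CPM per kb), Ccl9 (18.4), Cxcl1 (7.58), Ccl6 (5.22) and Cxcl9 (4.5). In WT CDAHFD they were Ccl9 (42 CPM per kb), Ccl6 (36.3), Cxcl12 (29.1), Cxcl1 (14.7) and Cxcl14 (12.8). Cxcl12 made up 34.1% to 56.1% of the ligand pool in the WT chow libraries, but 12.5% to 17.1% in those of WT CDAHFD, 13.7% to 17.7% with KO chow, and 17.2% to 20.98% with KO CDAHFD. Ccl6 went from a mean of 4.67% in WT chow to 17.7% in WT CDAHFD, and to 12.1% and 14.003% in KO chow and KO CDAHFD. Neighbours in these orders overlapped between libraries, apart from Cxcl12 and Ccl9 in WT chow and Cxcl12 and Cxcl1 in WT CDAHFD.

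**Figure D3:**
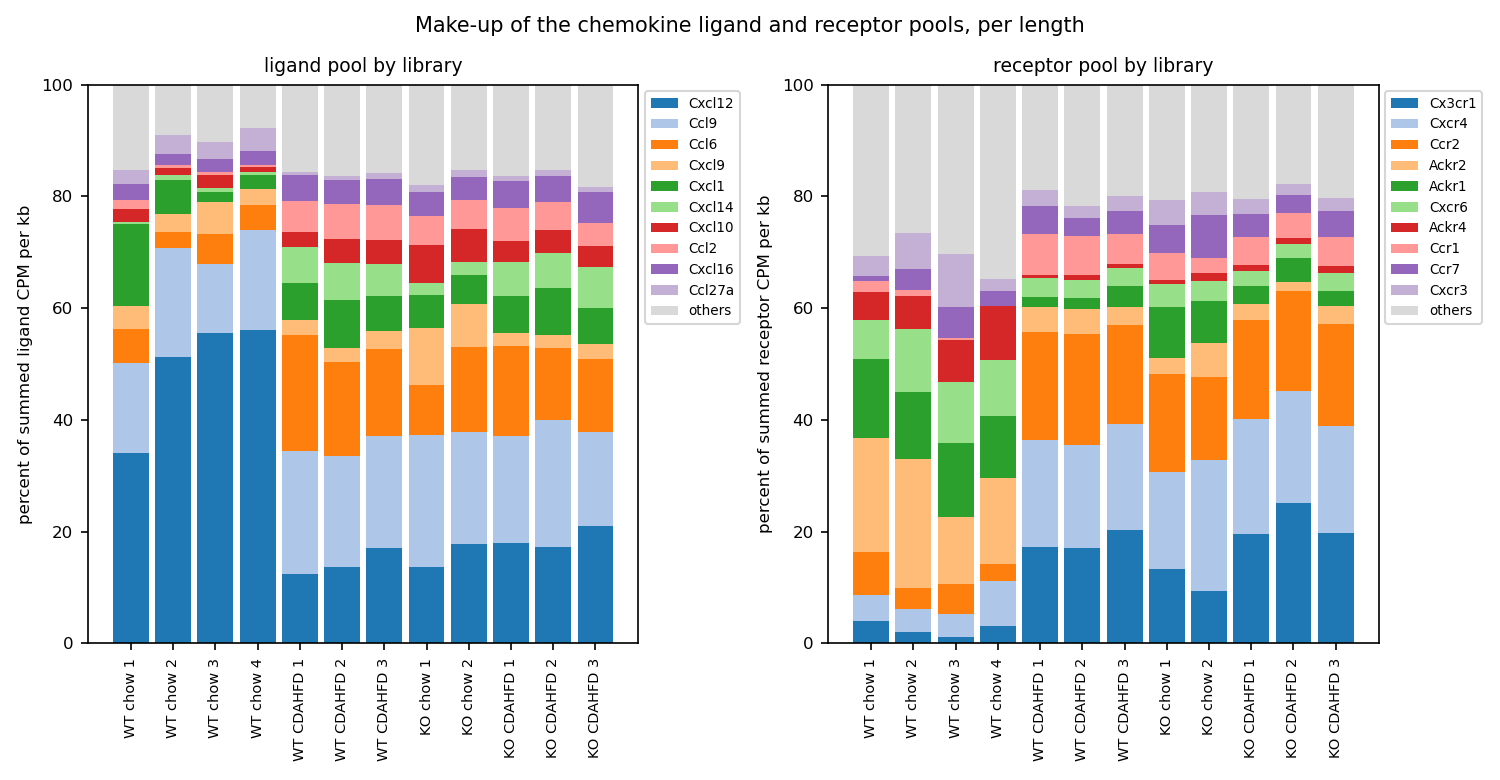
Stacked percent of the summed ligand CPM per kb (left) and receptor CPM per kb (right) taken by each gene in each of the 12 libraries, with 10 genes of high group share named and the rest in grey. Cxcl12 takes 34.1% to 56.1% of the ligand pool in WT chow and at most 20.98% elsewhere, and Ccr2, Cxcr4 and Cx3cr1 together take more of the receptor pool than the other receptors in both CDAHFD groups.

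The monocyte and macrophage receptors Ccr2, Cx3cr1 and Ccr1 rose in both comparisons. Ccr2, the monocyte receptor, was at 4.66, 1.57, 2.33 and 0.734 CPM in WT chow, 38.5, 41.8 and 29.9 CPM in WT CDAHFD, 23.1 and 18.1 CPM in KO chow and 30.9, 34.8 and 36.9 CPM in KO CDAHFD. WT chow did not overlap with any other group, and the log2 fold changes were 3.97 ± 0.38 (adjusted p = 2.59e-06) in WT CDAHFD and 3.14 ± 0.40 (adjusted p = 5.05e-05) in KO chow. Cx3cr1, the fractalkine receptor of patrolling monocytes and some macrophages, was at 1.59, 0.567, 0.3001 and 0.505 CPM in WT chow, 23, 23.7 and 22.9 CPM in WT CDAHFD, 11.7 and 7.62 CPM in KO chow and 22.6, 32.6 and 26.5 CPM in KO CDAHFD. It had the largest fitted receptor change of WT CDAHFD at 4.98 ± 0.36 (adjusted p = 2.80e-07) and reached 3.71 ± 0.38 (adjusted p = 9.59e-06) in KO chow, whose libraries lay between those of WT chow and of the CDAHFD groups.

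Ccr1, a receptor of monocytes and neutrophils, was at 0.466, 0.189, 0.0667 and 0 CPM in WT chow, 6.06, 6.16 and 3.82 CPM in WT CDAHFD, 2.69 and 1.33 CPM in KO chow and 3.66, 3.64 and 4.33 CPM in KO CDAHFD, with log2 fold changes of 4.85 ± 0.52 (adjusted p = 7.23e-06) with CDAHFD and 3.43 ± 0.57 (adjusted p = 0.000451) with the KO. Its WT chow libraries were below those of all other groups, and KO chow lay between WT chow and the CDAHFD groups.

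Cxcr4, the CXCL12 receptor (chromosome 1, 128588199 to 128592293), rose while its ligand fell. It was at 0.776, 0.441, 0.467 and 0.505 CPM in WT chow, 10.2, 10.3 and 8.54 CPM in WT CDAHFD, 6.17 and 7.57 CPM in KO chow and 9.58, 10.4 and 10.3 CPM in KO CDAHFD, with narrow ranges that did not overlap between WT chow, KO chow and the CDAHFD groups, and log2 fold changes of 4.15 ± 0.19 (adjusted p = 1.38e-08) with CDAHFD and 3.65 ± 0.21 (adjusted p = 1.13e-07) with the KO. Ccr7, the receptor that takes dendritic cells and lymphocytes to lymphoid tissue, was at 0.155, 0.441, 0.7003 and 0.183 CPM in WT chow, 2.93, 1.9 and 2.03 CPM in WT CDAHFD, 1.93 and 2.74 CPM in KO chow and 2.08, 1.87 and 2.69 CPM in KO CDAHFD, with log2 fold changes of 2.57 ± 0.39 (adjusted p = 0.000145) with CDAHFD and 2.60 ± 0.42 (adjusted p = 0.000387) with the KO and no overlap with WT chow. Cxcr2, the neutrophil receptor, was 0.384 ± 0.31 CPM in WT chow, 1.24 ± 0.285 CPM in WT CDAHFD, 1.43 ± 0.369 CPM in KO chow and 1.51 ± 0.348 CPM in KO CDAHFD, and its log2 fold changes were 1.69 ± 0.50 (adjusted p = 0.0123) with CDAHFD and 1.89 ± 0.54 (adjusted p = 0.0144) with the KO, calls that were lost without WT CDAHFD replicate 2 (adjusted p = 0.0504) and without KO chow replicate 1 (adjusted p = 0.112). Its paralog Cxcr1 was below 10 counts everywhere.

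Cxcr3 was 0.604 ± 0.368 CPM in WT chow, 1.27 ± 0.164 CPM in WT CDAHFD, 1.39 ± 0.149 CPM in KO chow and 1.12 ± 0.142 CPM in KO CDAHFD, and its call in WT CDAHFD, 1.03 ± 0.39 (adjusted p = 0.0438), was lost in 10 of 12 fits that each left out 1 library, while KO chow gave 1.16 ± 0.44 (adjusted p = 0.0508). Xcr1, the receptor of cross-presenting dendritic cells, was 0.804 ± 0.328 CPM in WT chow, 1.3 ± 0.0841 CPM in WT CDAHFD, 1.74 ± 0.0324 CPM in KO chow and 2.25 ± 0.729 CPM in KO CDAHFD, with 1.12 ± 0.34 (adjusted p = 0.0188) in KO chow, a call lost without either KO chow library (adjusted p = 0.0876 and 0.065), and 0.70 ± 0.31 (adjusted p = 0.0752) in WT CDAHFD. Cxcr6, a receptor of liver-resident T and NKT cells, was at 1.2, 1.32, 1.33 and 0.688 CPM in WT chow, 1.89, 1.84 and 1.57 CPM in WT CDAHFD, 1.6 and 1.24 CPM in KO chow and 1.36, 1.39 and 1.83 CPM in KO CDAHFD, so that WT chow lay below WT CDAHFD, and its changes of 0.62 ± 0.25 (adjusted p = 0.0558) with CDAHFD and 0.31 ± 0.29 (adjusted p = 0.435) with the KO did not pass the test. Ccr6 was 0.0976 ± 0.0843 CPM in WT chow, 0.208 ± 0.107 CPM in WT CDAHFD, 0.1999 ± 0.129 CPM in KO chow and 0.25 ± 0.173 CPM in KO CDAHFD and Cxcr5 was 0.197 ± 0.11 CPM in WT chow, 0.335 ± 0.0779 CPM in WT CDAHFD, 0.327 ± 0.155 CPM in KO chow and 0.264 ± 0.108 CPM in KO CDAHFD. Ccr9 was 0.508 ± 0.127 CPM in WT chow, 0.849 ± 0.346 CPM in WT CDAHFD, 0.692 ± 0.0166 CPM in KO chow and 0.942 ± 0.285 CPM in KO CDAHFD and Ccr10 was 0.276 ± 0.0249 CPM in WT chow, 0.369 ± 0.18 CPM in WT CDAHFD, 0.142 ± 0.0296 CPM in KO chow and 0.404 ± 0.133 CPM in KO CDAHFD. None of these 4 passed the test in either comparison. Exons of Cxcr5 share 110 bases with Bcl9l on the other strand, which had 26768 reads over all libraries against 130 for Cxcr5.

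Ccr3, the eotaxin receptor of eosinophils, was at 0.194, 0.378, 0.3001 and 0.0459 CPM in WT chow, 2.25, 2.1 and 1.05 CPM in WT CDAHFD, 0.462 and 0.315 CPM in KO chow and 0.339, 0.267 and 0.238 CPM in KO CDAHFD. The WT CDAHFD libraries exceeded all others, and KO chow and KO CDAHFD overlapped with WT chow. The log2 fold change was 2.89 ± 0.44 (adjusted p = 0.000143) in WT CDAHFD and 0.68 ± 0.55 (adjusted p = 0.351) in KO chow, and Ccr3 was the 1 member that differed between KO CDAHFD and WT CDAHFD, at -2.66 ± 0.46 (adjusted p = 0.0296). Its ligands Ccl5, Ccl11 and Ccl24 were not called in that comparison, and Ccl26 was below 10 counts everywhere.

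**Figure D4:**
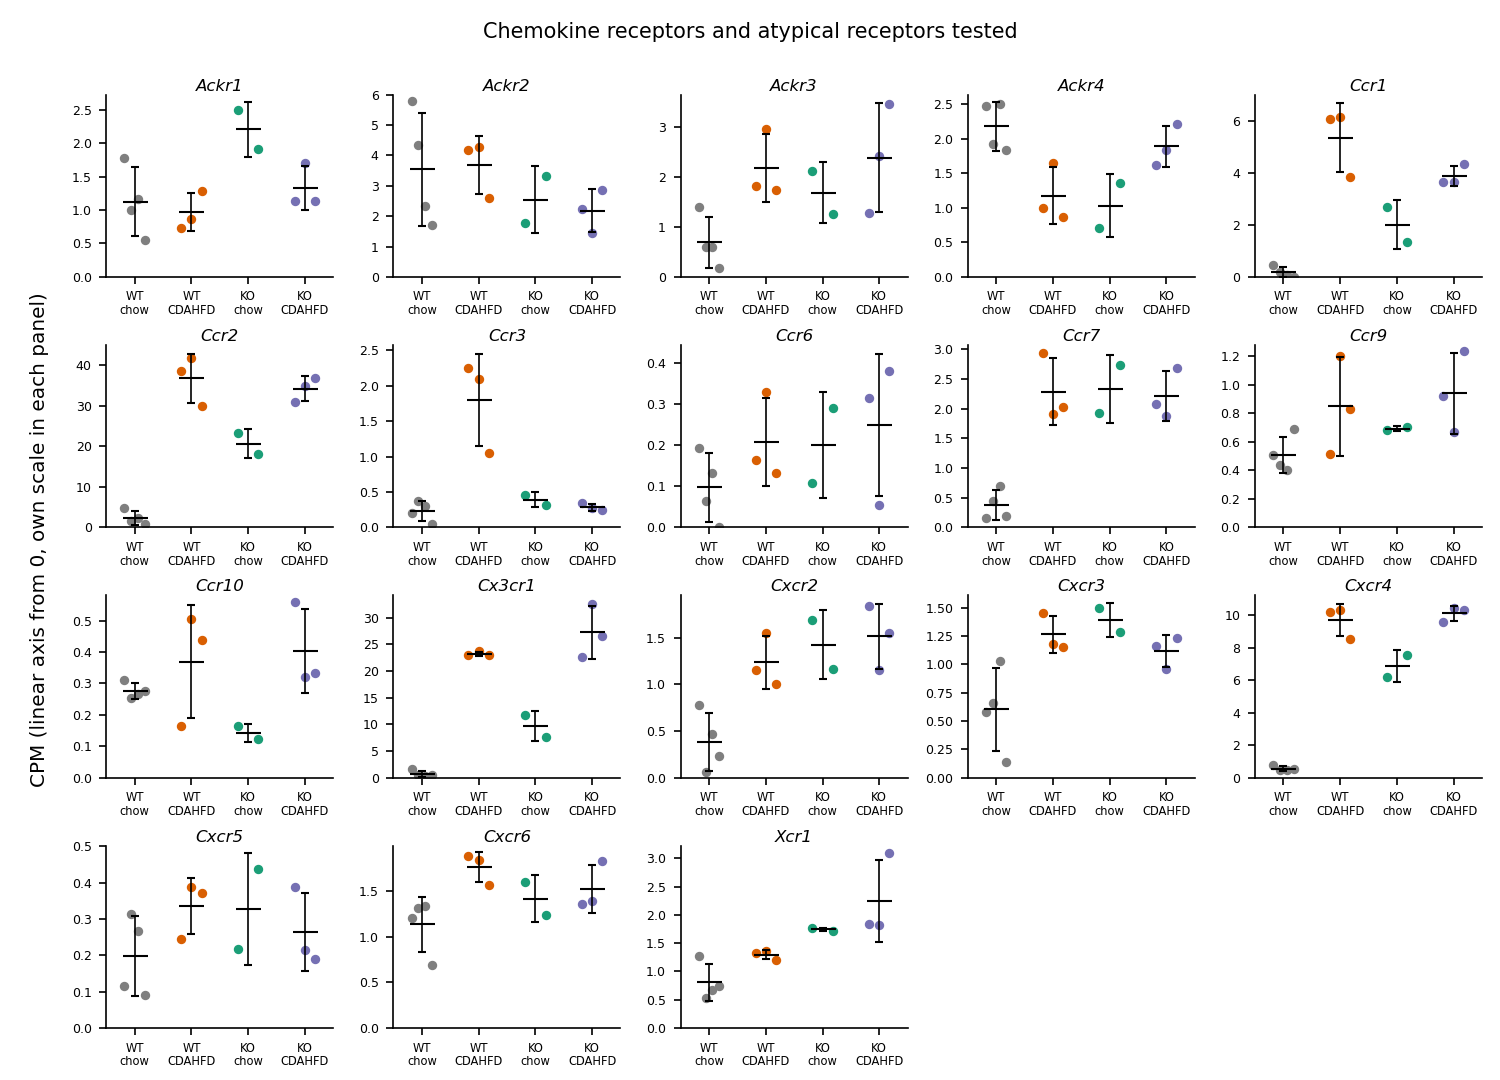
Levels in CPM of tested receptors and atypical receptors, one panel per gene, with one point per library, the group mean as a line and the SD as a bar that stops at 0. Ccr1, Ccr2, Cx3cr1 and Cxcr4 have their lowest points in WT chow and higher points in both CDAHFD groups than in KO chow, and Ccr3 is high in WT CDAHFD alone.

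Of the 4 atypical receptors, Ackr4 was lower in both comparisons and Ackr3 higher in WT CDAHFD. Ackr4, which scavenges CCL19, CCL21 and CCL25, was at 2.48, 1.92, 2.5 and 1.83 CPM in WT chow, 1.004, 1.65 and 0.874 CPM in WT CDAHFD, 0.707 and 1.36 CPM in KO chow and 1.62, 1.84 and 2.21 CPM in KO CDAHFD and fell, with -0.89 ± 0.29 (adjusted p = 0.0218) in WT CDAHFD and -1.07 ± 0.34 (adjusted p = 0.0253) in KO chow. Both calls were lost under scaling by library size alone (adjusted p = 0.374 and 0.143) and in 4 and 2 of 12 fits that left out a library. Exons of Ackr4 share 479 bases with Acad11, an abundant gene on the other strand. Acad11 had 102630 reads over all libraries against 725 for Ackr4, and reads from the shared stretch cannot be told apart. Ackr3, which scavenges CXCL12, was 0.695 ± 0.508 CPM in WT chow, 2.18 ± 0.685 CPM in WT CDAHFD, 1.69 ± 0.608 CPM in KO chow and 2.4 ± 1.09 CPM in KO CDAHFD, and it was called in WT CDAHFD at 1.64 ± 0.49 (adjusted p = 0.0133), lost without WT CDAHFD replicate 2 (adjusted p = 0.0644), but not in KO chow at 1.26 ± 0.54 (adjusted p = 0.0842). Ackr2, a scavenger of inflammatory CC chemokines, was at 5.78, 4.34, 2.33 and 1.7 CPM in WT chow, 4.18, 4.29 and 2.6 CPM in WT CDAHFD, 1.77 and 3.32 CPM in KO chow and 2.23, 1.44 and 2.85 CPM in KO CDAHFD, and Ackr1, which binds chemokines on venular endothelium, was at 1.79, 1.01, 1.17 and 0.55 CPM in WT chow, 0.738, 0.874 and 1.29 CPM in WT CDAHFD, 2.5 and 1.92 CPM in KO chow and 1.14, 1.71 and 1.14 CPM in KO CDAHFD. WT chow overlapped with WT CDAHFD for both, and neither passed the test in either comparison. Exons of Ackr1 share 361 bases with Cadm3 on the same strand, whose reads amounted to 482% of those of Ackr1.

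The receptor pool per length, typical and atypical receptors together, rose as well. It was 6.21 ± 2.24 CPM per kb (SD, n = 4) in WT chow, with 28.5 ± 3.102 for the 3 WT CDAHFD libraries, 18.8 ± 1.17 for the 2 of KO chow and 28.1 ± 2.13 for the 3 of KO CDAHFD, and the KO chow libraries, at 17.9 and 19.6, lay between WT chow and the CDAHFD groups without overlap. Among the highest receptors of WT chow were Ackr2 (1.13 CPM per kb), Ackr1 (0.803), Cxcr6 (0.589) and Ackr4 (0.406), an order whose neighbours overlapped between libraries. In WT CDAHFD these included Ccr2 (5.43 CPM per kb), Cxcr4 (5.36), Cx3cr1 (5.15) and Ccr1 (1.89), the first 3 of which overlapped. Ackr2 went from 17.7% of the receptor pool in WT chow to 4.095% in WT CDAHFD, and Cx3cr1 made up 18.2% in WT CDAHFD. The level of Ackr2 was 1.13 CPM per kb in WT chow and 1.18 in WT CDAHFD, so its share fell as the pool grew.

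With CDAHFD given to both genotypes, 1 chemokine member differed. By edgeR and by DESeq2, 0 tested members were higher in KO CDAHFD than in WT CDAHFD (background 0.0864%) and 1, Ccr3, was lower (background 0.271%). At an unadjusted p under 0.05 there were 4 members, Ackr4, Ccr3, Cxcl12 and Xcr1. Of the 46 members not called, Xcr1 had the largest absolute log2 fold change at 0.79 ± 0.31 (adjusted p = 0.473), and 38 of the 47 tested were under 0.5 with a median SE of 0.36. The Ccr3 call was lost when any of WT CDAHFD replicates 1 and 2 and KO CDAHFD replicates 1, 2 and 3 was left out (adjusted p = 0.104 to 0.181) and with libraries of clock score above 0 (adjusted p = 0.0532).

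Adding CDAHFD to the KO raised 3 members (6.38%, background 3.76%) and lowered 1 (2.13%, background 2.44%). Cxcl14, Cx3cl1 and Cx3cr1, whose libraries are given above, were higher in KO CDAHFD than in KO chow by 1.53 ± 0.27 (adjusted p = 0.00736) for Cxcl14, 1.43 ± 0.35 (adjusted p = 0.0328) for Cx3cl1 and 1.499 ± 0.37 (adjusted p = 0.0325) for Cx3cr1, and Cxcl9 was lower. For each of these 4 the KO CDAHFD and KO chow libraries did not overlap. The calls of Cx3cl1 and Cx3cr1 were lost in 7 and 8 of 12 fits that each left out 1 library, among them those without any 1 of the WT CDAHFD libraries, which are not in the comparison but share its spread estimate (log2 fold changes 1.03 to 1.98 and 1.22 to 1.85 over the 12 fits), and that of Cxcl14 was lost without KO chow replicate 2 (adjusted p = 0.0661). At an unadjusted p under 0.05 there were 11 members. Ccr2, Ccr1 and Cxcr4 had values of 0.73 ± 0.41 (adjusted p = 0.311), then 0.95 ± 0.49 (adjusted p = 0.272), and lastly 0.56 ± 0.19 (adjusted p = 0.114).

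**Figure D5:**
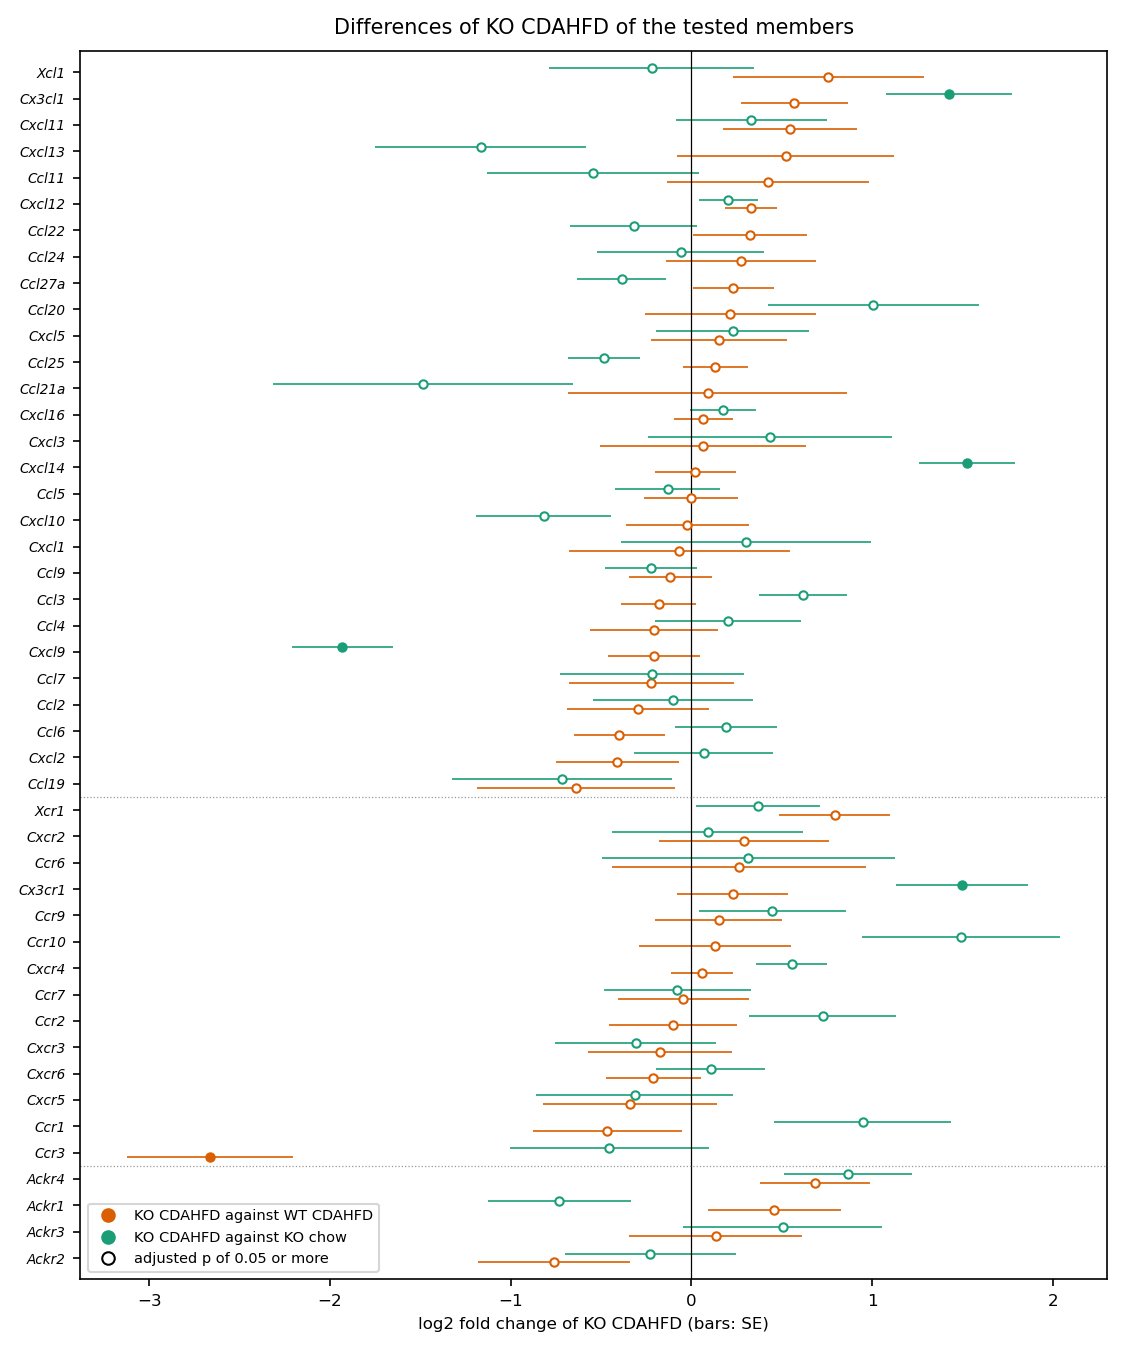
Log2 fold change with SE of tested members in KO CDAHFD against WT CDAHFD (orange) and against KO chow (green), ligands at the top, receptors in the middle and atypical receptors at the bottom, filled where the adjusted p was under 0.05. Most circles are open and near 0, Ccr3 is filled at -2.66 against WT CDAHFD, and Cx3cl1, Cxcl14, Cx3cr1 and Cxcl9 are filled against KO chow.

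The diet effect differed between genotypes for most of the changed members. The interaction, which is the log2 fold change of CDAHFD in KO minus that in WT, was called lower for 24 members (51.1%, background 14.5%) and higher for 3 (6.38%, background 8.63%), namely Ackr4, Cxcl12 and Cxcl13. The median over the tested members was -1.67, against 0.012 over all genes. For Ccl2 it was -3.85 ± 0.61 (adjusted p = 0.000599), made of a diet change of 3.75 in WT and -0.10 in KO. Cxcr4 had -3.59 ± 0.27 (adjusted p = 3.36e-06), with 4.15 in WT and 0.56 in KO. For Cxcl13 the interaction was 3.73 ± 0.79 (adjusted p = 0.00439), with -4.90 in WT and -1.17 in KO. The WT chow libraries enter both the interaction and the comparisons above.

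Many genes downstream of the receptors rose as well. In a list of 50 genes of chemokine receptor signalling (G proteins, kinases, exchange factors and adhesion regulators), 49 were tested, of which 31 were higher and 2 lower in WT CDAHFD (backgrounds 26.1% and 25%) and 28 higher and 1 lower in KO chow (22% and 17%), with median log2 fold changes of 0.90 and 0.77 over the 49. The largest called changes in WT CDAHFD were those of Rgs1, a GTPase-activating regulator of chemokine receptors in leukocytes (3.92 ± 0.34 (adjusted p = 1.09e-06)), Pik3r5, a PI3 kinase gamma subunit (3.75 ± 0.24 (adjusted p = 1.25e-07)), and Dock2, a Rac exchange factor of leukocytes (2.87 ± 0.19 (adjusted p = 1.51e-07)). Crkl and Gnai3 were lower, at -0.33 ± 0.10 (adjusted p = 0.0172) and -0.23 ± 0.09 (adjusted p = 0.04998). In KO chow, Rgs1 was at 2.97, Pik3r5 at 2.14 and Dock2 at 1.91. 

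Of 11 chemokine-system genes with other names, 5 were higher and 3 lower in WT CDAHFD, and 5 higher and 1 lower in KO chow, against the same backgrounds, to which the 3 lower of 11 are close. Pf4, a platelet and macrophage chemokine, was higher by 3.04 ± 0.34 (adjusted p = 1.11e-05), Cmklr1, the chemerin receptor, by 1.90 ± 0.31 (adjusted p = 0.000219), and Ccrl2, an atypical chemerin-binding receptor, by 1.70 ± 0.17 (adjusted p = 3.93e-06). Gpr182, an endothelial scavenger of chemokines, was lower at -1.19 ± 0.23 (adjusted p = 0.000979), as were Mif, a cytokine that binds CXCR2 and CXCR4, at -0.67 ± 0.13 (adjusted p = 0.00070) and the proteoglycan Sdc1 at -0.37 ± 0.12 (adjusted p = 0.0196). In KO chow, Sdc1 was higher, at 0.51 ± 0.13 (adjusted p = 0.00783). Of 16 NF-kappa B pathway genes, 9 were higher and 1 lower in each comparison, with median log2 fold changes of 0.66 and 0.49. The backgrounds were 26.1% and 25% in WT CDAHFD and 22% and 17% in KO chow. Tnf was higher by 3.49 ± 0.28 (adjusted p = 6.93e-07) in WT CDAHFD and 3.05 ± 0.31 (adjusted p = 8.39e-06) in KO chow, the feedback inhibitor Tnfaip3 by 3.03 ± 0.21 (adjusted p = 1.83e-07) with CDAHFD and 2.65 ± 0.22 (adjusted p = 2.06e-06) with the KO, and Relb by 2.50 ± 0.41 (adjusted p = 0.000238) with CDAHFD and 2.08 ± 0.44 (adjusted p = 0.00248) with the KO, whereas Chuk was lower at -0.68 ± 0.15 (adjusted p = 0.0021) with CDAHFD and -0.65 ± 0.17 (adjusted p = 0.00944) with the KO.

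Leukocyte markers are given against the same backgrounds. All 7 macrophage markers were higher in WT CDAHFD and 6 in KO chow, and their summed level ranged from 227 to 411 CPM in WT chow, 1395 to 1903 in WT CDAHFD, 890.0 to 903 in KO chow and 1446 to 1490 in KO CDAHFD. Of 8 markers of monocytes and monocyte-derived macrophages, 7 were higher and 1, F10, which hepatocytes also express, was lower in each comparison, with sums of 496 to 546 CPM in WT chow, 969 to 1202 in WT CDAHFD, 457 to 458 in KO chow and 1030 to 1084 in KO CDAHFD. F10 made up most of these sums in WT chow (489.6 to 544 CPM) and KO chow (329.6 to 335 CPM), and Gpnmb, at 0.0917 to 0.349 CPM in WT chow, most of them in WT CDAHFD (559 to 796 CPM). Of 8 neutrophil markers, 7 were tested and 5 were higher in each comparison, with sums of 2.86 to 13.9 CPM in WT chow and 21.1 to 32.1 elsewhere, and Ly6g, which defines neutrophils, was at 3 counts or fewer everywhere. Of 11 T and NK cell markers, 7 were higher in WT CDAHFD and 8 in KO chow, with Cd4 lower in both. The sums were 6.605 to 9.95 CPM in WT chow and 9.62 to 14.9 elsewhere. Cd4 had the highest mean level of this list over all libraries, so its fall enters these sums against the rises. Of 6 dendritic cell markers, 4 were higher in each, with sums of 9.49 to 12.6 CPM in WT chow and 16.3 to 23.2 elsewhere. The part of these cells in the ligand and receptor changes was not tested.

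The lists of other liver cells are given against the shares of all tested genes. These were 26.1% higher and 25% lower in WT CDAHFD, and 22% and 17% in KO chow. Counts of 1 gene in a list, up or down, did not exceed these shares. The 6 Kupffer cell markers gave 1 higher (Cd5l) and 1 lower (Timd4) in WT CDAHFD and 3 higher in KO chow, with sums of 235 to 402 CPM in WT chow, 405 to 509 in WT CDAHFD, 695 to 916 in KO chow and 214 to 559 in KO CDAHFD. Of 8 stellate cell and fibroblast markers, 6 were higher in each comparison (223 to 304 CPM in WT chow and 929 to 1566 elsewhere, Dcn the highest), and of 6 cholangiocyte markers 6 and 5 were (46.4 to 79.5 CPM in WT chow and 166 to 888 elsewhere, mostly Spp1). Of 7 sinusoidal endothelial markers, 3 were lower in WT CDAHFD and 1 was higher in KO chow (233 to 340 CPM in WT chow and 152 to 303 elsewhere). Of 6 B and plasma cell markers, 5 were tested, of which 1 was higher in KO chow (4.49 to 8.66 CPM in WT chow and 6.77 to 18.3 elsewhere). All 8 hepatocyte markers were lower in WT CDAHFD and 6 in KO chow, although Alb stayed the highest at 68664 ± 6772 CPM (SD, n = 4) in WT chow and 35709 ± 5581 CPM (SD, n = 3) in KO CDAHFD. Their part in the changes was not tested.

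In all, 12 members were below 10 counts in every library, namely the ligands Ccl1, Ccl8, Ccl21b, Ccl26, Ccl27b, Ccl28, Cxcl15 and Cxcl17 and the receptors Ccr1l1, Ccr4, Ccr8 and Cxcr1. Ccl27b and Cxcl15 had no read at all. Ccl12 and Ccl17 reached 10 counts in at least 1 library but were too low for the test. At these depths a floor of 3 reads corresponds to 0.0618 to 0.112 CPM, so that differences below it were not detectable, and Ccl21b and Ccl27b are near-identical to Ccl21a and Ccl27a, between which reads could have been split.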

How the data were processed

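Poly-A RNA of mouse liver was sequenced from non-directional libraries. The authors aligned the reads with STAR 2.7.3a to GRCm38 after FastQC 0.11.5 and deposited raw read counts per Ensembl gene for 12 libraries; the counting program and annotation release are not given in the sources used here. From these counts, symbols and exon lengths were taken from GENCODE M21 (94.1% of identifiers), genes low in all groups were removed with filterByExpr, and 4 group means were fitted with edgeR 4.0.16 (TMM scaling, quasi-likelihood test, R 4.3.3) in 5 comparisons, with Benjamini-Hochberg adjustment over 17358 genes. The SE is the fold change divided by the square root of F. CPM values use TMM library sizes. The test was also run on simulated counts in which few genes changed, with folds drawn evenly up and down. That run does not cover compositional shifts like those described above. Members, lists and tests were chosen with earlier results of these data known. Full values are given for the called members of largest change (at most 8 per direction) against WT chow, all called in other comparisons and the 5 highest ligands and receptors per length in WT chow and WT CDAHFD. Counts are over all members, of which 1 is not reported here. Alternatives were library-size and RLE scaling, no filter, the compared groups alone, a replicate block, the clock score as a covariate, DESeq2 1.42.0, leaving out each library, and, added after seeing the data, libraries with a clock score above 0. That score is the mean of 4 clock genes minus that of 10 others, each standardised over the libraries on the log2 scale. Upstream bases (250) come from RefSeq. Nothing states that mice were separate litters or cages, so p-values measure the spread between these libraries; the study's text gives 3 mice per group, and the labels 4, 3, 2 and 3.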

Additional observations from a re-analysis of the deposited data

Results flagged for a closer look

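In 5 of 49 members checked, 1 of the 4 WT chow libraries lay far from the others by Dixon's criterion, which chance alone meets in about 1 of 20 groups. For Cxcl5 and Ccl17 the other 3 libraries are at 0, so that they meet it by construction and cannot be set against that rate. Replicate 1 was the highest library for 4 of them. Ccl21a was at 4.89 CPM there, against 0.183 to 0.881 CPM in the other 3, Ccl7 at 0.66 CPM against 0.0459 to 0.126 CPM, Cxcl16 at 10.56 CPM against 6.65 to 7.24 CPM, and Cxcl5 at 0.116 CPM against 0 in the others. Ccl17 was at 0.10 CPM in replicate 3 and at 0 in the rest. The cause was not tested.

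The diet effect differed between KO and WT for 26 members described here, by the interaction of genotype and diet in edgeR's quasi-likelihood test. Values are the log2 change with CDAHFD in KO minus that in WT. Among the ligands they were -4.51 for Ccl4, -4.23 for Ccl22, -4.12 for Ccl7, -3.85 for Ccl2, -3.36 for Cxcl2, -3.18 for Ccl3, -2.76 for Cxcl10 and -2.67 for Cx3cl1, and -2.67 for Cxcl14, -2.61 for Ccl6, -2.26 for Cxcl9, -2.14 for Ccl5, -1.67 for Cxcl16 and -1.41 for Ccl9. The values of Cxcl5 (-6.99), Cxcl3 (-5.61) and Ccl20 (-5.57) rest on at most 3 reads in the WT chow libraries and depend on the prior count of the fit. Among the receptors they were -3.90 for Ccr1, -3.59 for Cxcr4, -3.48 for Cx3cr1, -3.34 for Ccr3, -3.24 for Ccr2 and -2.64 for Ccr7. Positive values were found for Cxcl13 (3.73), Ackr4 (1.76), whose exons overlap with Acad11 as given above, and Cxcl12 (1.10). Without KO chow replicate 1 the interactions of Ackr4 and Ccl9 no longer passed the test (adjusted p = 0.0871 and 0.0567), nor did that of Cxcl3 without KO chow replicate 2 (0.0813). The WT chow libraries enter every value, and the cause of these differences was not tested.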

How the results depend on the processing

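Over the 92 member calls and 5 pairs of counts, no alternative turned a direction. Scaling by library size alone gave 3 instead of 5 members lower in WT CDAHFD, 1 instead of 3 lower in KO chow and 5 instead of 3 higher in KO CDAHFD than in KO chow. DESeq2 also gave 5 in the last of these. Over all genes it called 245 instead of 62 in KO CDAHFD against WT CDAHFD and 1904 instead of 1075 in KO CDAHFD against KO chow. With libraries of clock score above 0, which leaves 1 KO chow library (assumed to vary like the other groups) and 2 each of WT chow and KO CDAHFD, 0 instead of 1 member was lower in KO CDAHFD than in WT CDAHFD and 0 instead of 3 were higher than in KO chow. Leaving out 1 library at a time gave 0 to 1 members lower in KO CDAHFD than in WT CDAHFD and 0 to 5 higher in KO CDAHFD than in KO chow. The clock score as a covariate lost 0 of the 92 calls. Fits of the compared groups alone, which do not cover the interaction, and fits without a library filtered genes anew. Calls of members that failed that filter are counted below as neither kept nor lost, and the compared groups alone kept 56. Calls were lost 4 times with library size alone, 5 times with only the compared groups, 1 time without the filter, 13 times with positive clock scores and 49 times in 1098 fits that left out a library. A replicate block lost 3 calls and gave 25 members higher and 5 lower in WT CDAHFD, 25 and 3 in KO chow, 4 and 1 in KO CDAHFD against KO chow and 3 and 23 in the interaction. Of 15 same-numbered pairs, 4 had a correlation of deviations over 0.1 (range -0.39 to 0.35), and 3 of 12 libraries correlated best with their own number. Deviations were taken from group means, so the 2 KO chow libraries mirror each other. Whether the numbers mark a shared litter, cage or day therefore cannot be decided from these values. Depth limits members near 3 reads, such as Ccl11, Ccl20 and Cxcl3.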
